A study of Homo sapiens with 4 samples.

Results

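The miR-23/27/24 clusters are a pair of genomic loci that each encode a miR-23, a miR-27 and a miR-24. The members were the 5 deposited miRNA names that match hsa-miR-23a, hsa-miR-27a, hsa-miR-24, hsa-miR-23b or hsa-miR-27b exactly, without star names, here written without the hsa prefix, of 1100 names in each library. All 5 were above 0 in every library. Small RNA had been sequenced from exosomes and from cells of MDA-MB-231, a human triple-negative breast cancer line grown with 10% fetal bovine serum. The same had been done for MCF-10A, a non-transformed human mammary epithelial line grown with 5% horse serum, epidermal growth factor (20 ng/ml), insulin (10 µg/ml), hydrocortisone (0.5 µg/ml) and cholera toxin (0.1 µg/ml). Exosomes are small vesicles that cells release with RNA inside. Each line gave 1 exosome library and 1 cell library, and that of MCF-10A cells is called by its label, the library labelled MCF-10A cell. With no replicates, no difference below has a test, an SD or a p-value.

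A primary transcript of either cluster is cut by Drosha and Dicer into 3 hairpin-derived duplexes. From each duplex 1 arm, the guide, enters an Argonaute protein and represses mRNAs that pair with its seed, and the other arm, named with a star, is mostly lost. miR-23a and miR-23b are known to repress glutaminase, miR-27a and miR-27b to repress the adipogenic receptor PPARG, and miR-24 to repress cell cycle genes such as E2F2. Both clusters are known for roles in endothelial cells and the growth of blood vessels.

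The mature sequences are shown because the comparison of the a and b paralogs rests on 1 base near the 3′ end and, for miR-23, on length. They are RefSeq's, 5′ to 3′, with the seed (bases 2 to 8) in capitals, and the RefSeq table held all 5 members and all 6 star arms.
miR-23a: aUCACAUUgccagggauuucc
miR-23b: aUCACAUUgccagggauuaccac
miR-27a: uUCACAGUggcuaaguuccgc
miR-27b: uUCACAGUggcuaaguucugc
miR-24: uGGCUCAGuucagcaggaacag
The paralogs share their seeds and their first 18 bases. Counted from 1 at the 5′ end, miR-23a and miR-23b differ by U19A, and miR-23b is 2 bases longer. miR-27a and miR-27b differ by C19U. A read that ended before base 19 would not tell the paralogs apart. The libraries were size-selected from 17 to 52 nt, per the labels' protocols, and the assignment of such reads is not given in the sources used here. Mature lengths are close, so reads were compared between names with no length scaling. Among the mature names of the RefSeq table, no other name with any of these 3 seeds was in the deposited files. Deposited names that the table lacks were not checked. In the RefSeq table miR-23c has that of miR-23, and miR-9985 has that of miR-27.

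miR-24 is made with the same 22 bases from both clusters, so its name does not tell its source, while its star arms do. These are shown because they are the sole readout of the miR-24 hairpins that separates the loci.
miR-24-2*: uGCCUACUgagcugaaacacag
miR-24-1*: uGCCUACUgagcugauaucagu
They share the first 15 bases and differ at 6 of the other positions. In GRCh38.p14 the a cluster lies on the minus strand of chromosome 19, within 373 bases, with MIR23A at chr19:13836587-13836659, MIR27A at chr19:13836440-13836517 and MIR24-2 at chr19:13836287-13836359. In GENCODE release 29 all 3 overlap an exon of the non-coding gene AC020916.1 on that strand. The b cluster lies on the plus strand of chromosome 9, within 881 bases, with MIR23B at chr9:95085208-95085304, MIR27B at chr9:95085445-95085541 and MIR24-1 at chr9:95086021-95086088. MIR23B and MIR27B lie in an intron of C9orf3 and MIR24-1 overlaps an exon of it. MIR3074 lies on the other strand over MIR24-1, and the name miR-3074 was at 0 in the exosomes of both lines and at a level of 4 or less in the cell libraries. The deposited files give no coordinates, and the submitters' processing notes name hg18, so these positions come from the name match alone.

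A level below is the deposited log2 value, which counts reads per 10000000 with 1 added, and a share is the percentage of all miRNA reads. The depth, recovered from the low values, was 1532909 reads in the exosome library and 7346080 in the cell library of MDA-MB-231. It was 1254644 reads in MCF-10A exosomes, while the library labelled MCF-10A cell had 10937897. Intervals in parentheses are 95% intervals for counting error. Those of ratios and shifts, but not the Wilson intervals of shares, were widened by the rounding of the deposited values. PCR reads without molecular identifiers are not independent molecules, so the intervals cover counting error only. By its content, the library labelled MCF-10A cell (also called here the cell-labelled library of MCF-10A) differed from the other libraries. In it, 44 names on 8 lists of other tissues (muscle, liver, erythroid, leukocyte, endothelial, mesenchymal, neural, placental) held 49.5% of reads, against 0.0881% in the exosomes of the same line. In MDA-MB-231 they held 2.62% in exosomes and 0.348% in cells. That library also carried epithelial miRNAs, with 1.01% of reads on the 7 listed names, against 4.41% in MCF-10A exosomes. The share of the same list was 0.0232% in exosomes and 0.046% in cells of MDA-MB-231, where miR-205 was at 0 in cells. Results that rest on it are given with the other libraries beside it, since it is the sole library under that label.

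In all 4 libraries miR-24 was the most abundant member, and the miR-23 names were the least. In MDA-MB-231 the 5 members together held 4.87% of reads in exosomes and 6.35% in cells. In MCF-10A they held 1.82% in exosomes, while the library labelled MCF-10A cell had 7.01%. hsa-miR-24, with levels of 17.68 in exosomes and 18.36 in cells of MDA-MB-231, and of 16.31 in exosomes and 18.16 in the cell-labelled library of MCF-10A, led in each. It held 2.10% in MDA-MB-231 exosomes, where it ranked 10 among all names, and 3.36% in the cells, at rank 6. It held 0.812% in MCF-10A exosomes, at rank 15, while the library labelled MCF-10A cell had 2.93%, at rank 5. It was thus among the leading miRNAs of every library. The miR-27 pair summed to 2.25% in exosomes and 2.28% in cells of MDA-MB-231, and to 0.71% in exosomes and 2.66% in the cell-labelled library of MCF-10A. The miR-23 pair summed to 0.515% and 0.702% in exosomes and cells of MDA-MB-231, and to 0.302% and 1.41% in exosomes and the cell-labelled library of MCF-10A. The miR-27 sum thus differed little between MDA-MB-231 exosomes and cells (225173 and 228084 reads per 10000000), although the names that made it up changed places. MCF-10A exosomes were the lowest of the libraries for every member. A library of bulk RNA does not tell fewer cells or vesicles with a miRNA from less of it in each.

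**Figure D1:**
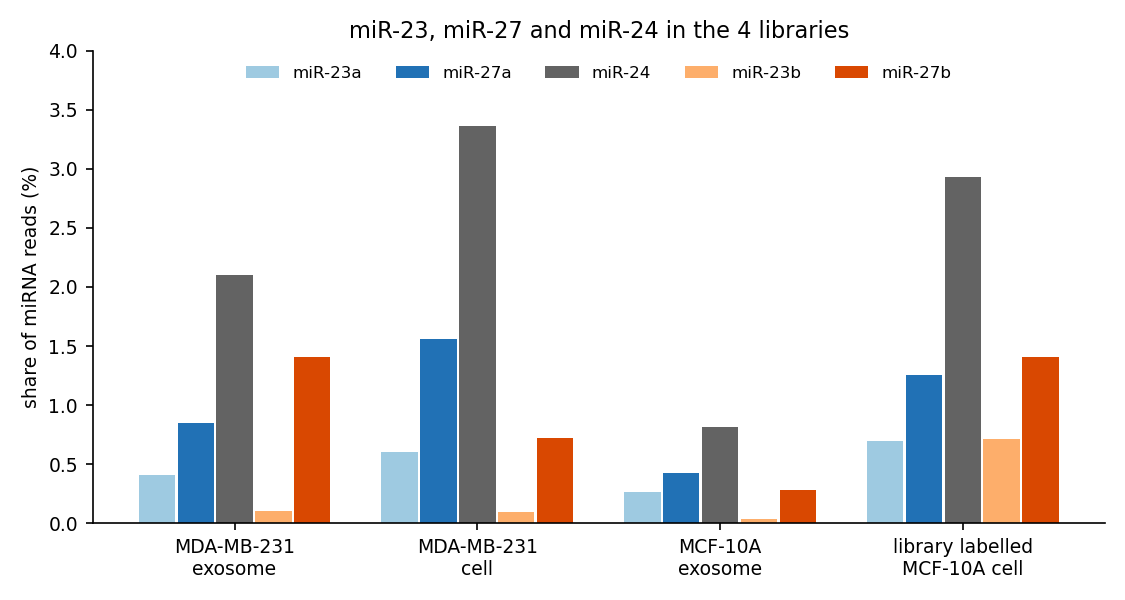
Share of miRNA reads (%, vertical axis) of each member in each library, 1 library per group, so the bars have no error bars. miR-24 is the tallest bar in each library, and miR-27b (1.40%) is above miR-27a (0.847%) in MDA-MB-231 exosomes but below it in MDA-MB-231 cells (0.722% and 1.56%).

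Among the a cluster's names, hsa-miR-23a had levels of 15.32 in exosomes and 15.88 in cells of MDA-MB-231, and of 14.71 in exosomes and 16.09 in the cell-labelled library of MCF-10A. hsa-miR-27a had levels of 16.37 in exosomes and 17.25 in cells of MDA-MB-231, and of 15.38 in exosomes and 16.94 in the cell-labelled library of MCF-10A. Both were thus higher in MDA-MB-231 cells than in the exosomes of either line. Among the b cluster's names, hsa-miR-23b had levels of 13.38 in exosomes and 13.26 in cells of MDA-MB-231, and of 11.74 in exosomes and 16.12 in the cell-labelled library of MCF-10A. hsa-miR-27b had levels of 17.10 in exosomes and 16.14 in cells of MDA-MB-231, and of 14.79 in exosomes and 17.10 in the cell-labelled library of MCF-10A. miR-23b was therefore far higher in the library labelled MCF-10A cell than anywhere else. miR-27b was as high in MDA-MB-231 exosomes as in that library, to the 2 decimals deposited.

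The order of miR-27a and miR-27b was not the same in all libraries. A ratio of 2 names within a library does not depend on how the library is scaled. In MDA-MB-231 the ratio of miR-27a to miR-27b was 0.603 in exosomes (0.586 to 0.62) and 2.16 in cells (2.12 to 2.2). In MCF-10A it was 1.51 in exosomes (1.43 to 1.58), while the library labelled MCF-10A cell had 0.895 (0.882 to 0.908). miR-27b was thus the more abundant paralog in MDA-MB-231 exosomes, by 1.66-fold, and miR-27a in the cells of that line and in MCF-10A exosomes. The ratio of miR-23a to miR-23b was 3.84 in exosomes (3.61 to 4.08) and 6.15 in cells (5.95 to 6.35) of MDA-MB-231. In MCF-10A it was 7.84 in exosomes (7.04 to 8.75), while the library labelled MCF-10A cell had 0.979 (0.963 to 0.996). miR-23a was the more abundant paralog in 3 libraries, and the pair stood almost level in the library labelled MCF-10A cell. Over the miR-23 and miR-27 names together, the a cluster's names made up 45.4% of reads in exosomes and 72.5% in cells of MDA-MB-231, and 68.6% in exosomes and 48% in the cell-labelled library of MCF-10A.

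**Figure D2:**
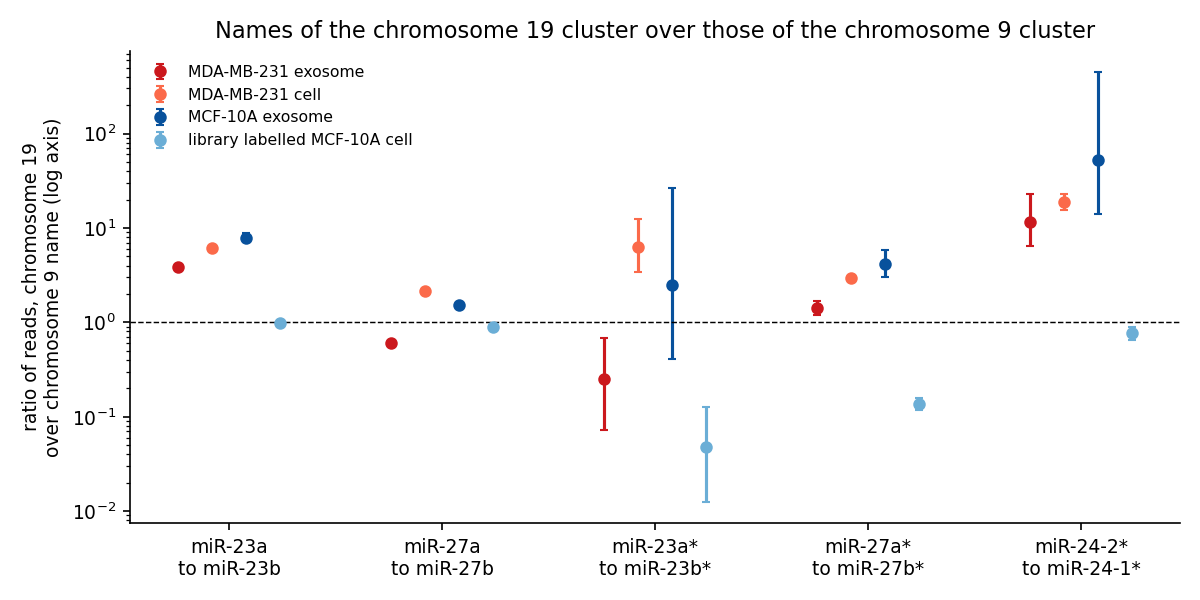
Reads of each chromosome 19 name divided by those of its chromosome 9 counterpart (log axis; the dashed line marks equal reads), for guide and star names in the 4 libraries, with 95% counting intervals. miR-27a lies below miR-27b in MDA-MB-231 exosomes (0.603) and above it in MDA-MB-231 cells (2.16), and all 5 ratios of the library labelled MCF-10A cell lie below 1, miR-23a to miR-23b barely so (0.979).

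Shifts of these ratios between libraries do not depend on scaling either. The log2 ratio of miR-27a to miR-27b was −0.73 in exosomes against 1.11 in cells of MDA-MB-231, a shift of −1.84 (−1.89 to −1.79), or 3.58-fold toward miR-27b in exosomes. The miR-23 pair shifted the same way by −0.68 (−0.79 to −0.57). Other pairs of names ending in a and b moved too (3 of 44 such pairs, with the same value in every library, were left out). Of 17 such pairs with at least 50 reads per 10000000 in both libraries, 35.3% shifted at least 2-fold in either direction, with a median absolute shift of 0.54. The pairs that moved at least as far as miR-27 were let-7a with let-7b (−2.90), miR-29a with miR-29b (2.46), miR-106a with miR-106b (2.41) and miR-374a with miR-374b (−2.04). The miR-27 shift was thus among the larger ones but not outside the range of such pairs. These 4 pairs were named after their values were seen.

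In exosomes, MDA-MB-231 against MCF-10A, the miR-27 ratio shifted by −1.32 (−1.41 to −1.23) and the miR-23 ratio by −1.03 (−1.21 to −0.85), both toward the b name in MDA-MB-231. Of 18 other pairs, 27.8% shifted at least 2-fold, and 5 shifted at least as far as either of them. These were miR-10, miR-30, miR-33, miR-99 and miR-196, named after their values were seen. In MDA-MB-231 cells against the library labelled MCF-10A cell, the shifts were 1.27 for miR-27 (1.23 to 1.31) and 2.65 for miR-23 (2.59 to 2.71), toward the a name in MDA-MB-231. There 66.7% of 18 other pairs shifted at least 2-fold, so shifts of that size were common. Of these pairs 10 shifted at least as far as miR-27 and 7 at least as far as miR-23. Set against MCF-10A exosomes instead, which leaves that library out, MDA-MB-231 cells had shifts of 0.52 for miR-27 (0.44 to 0.60) and −0.35 for miR-23 (−0.52 to −0.18). Of 16 other pairs, 11 shifted at least as far as miR-27 and 13 at least as far as miR-23. Their median absolute shift was 0.61, so both shifts were small beside those of such pairs. In MCF-10A exosomes against the library labelled MCF-10A cell, the shifts were 0.75 for miR-27 (0.67 to 0.83) and 3 for miR-23 (2.83 to 3.17). There 55.6% of 18 other pairs shifted at least 2-fold, with 11 pairs at least as far as miR-27 and 4 at least as far as miR-23.

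**Figure D3:**
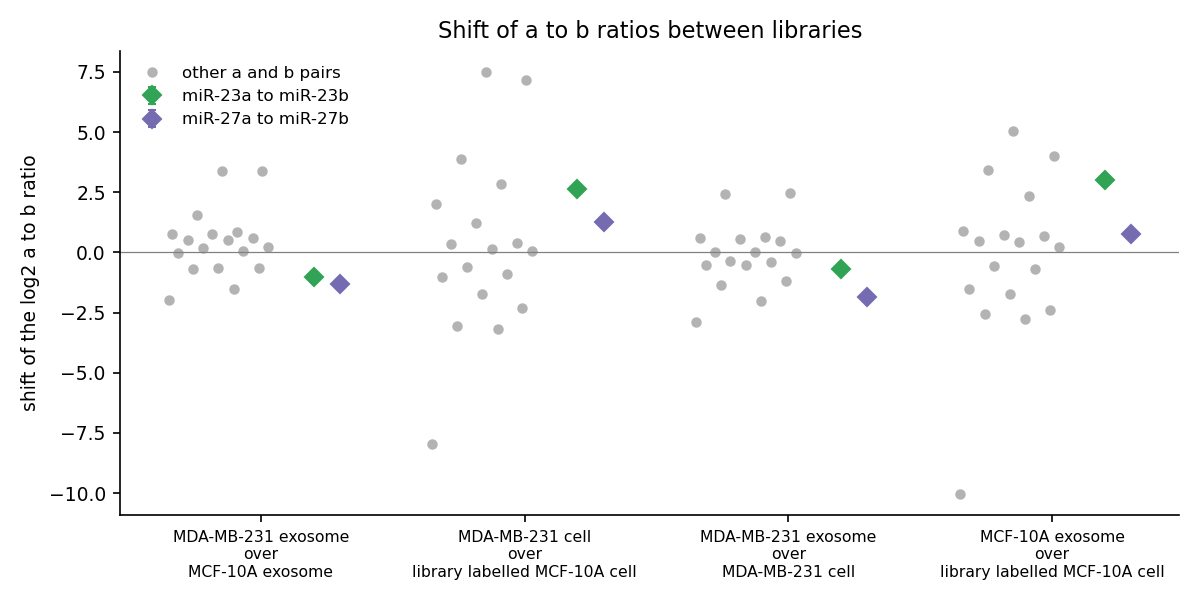
Shift of the log2 a to b ratio (vertical axis) in each of the 4 comparisons, for miR-23 and miR-27 (diamonds, with 95% counting intervals) and for the other a and b pairs with at least 50 reads per 10000000 in both libraries (grey). In MDA-MB-231 exosomes over MDA-MB-231 cells the miR-27 diamond lies at −1.84, and 4 of 17 grey pairs lie as far from 0.

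The star arms come from the same hairpins and were read apart from the members. miR-27a* and miR-27b* differ at 8 positions and miR-23a* and miR-23b* at 7, so these arms tell the loci apart more readily than the guides. Summed over the 3 hairpins of each locus in MDA-MB-231, the a cluster gave 530 star reads and the b cluster 303 in exosomes, and 8346 and 2187 in cells. In MCF-10A they gave 314 and 53 in exosomes, while the library labelled MCF-10A cell had 532 and 2022. The a cluster's share of star reads was 63.6% in exosomes (Wilson 95% interval 60.3 to 66.8) and 79.2% in cells (78.5 to 80) of MDA-MB-231. It was 85.6% in MCF-10A exosomes (81.6 to 88.8), while the library labelled MCF-10A cell had 20.8% (19.3 to 22.4). It was lower in MDA-MB-231 exosomes than in either of the next 2 libraries and lowest by far in the library labelled MCF-10A cell, the same order as for the miR-23 ratio. The miR-27 hairpins did not follow their guides in every library. In MDA-MB-231 exosomes miR-27a* exceeded miR-27b* by 1.42-fold (1.21 to 1.68; 386 and 271 reads), while the guide miR-27a was below miR-27b.

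For the hairpins of miR-24, miR-24-2* of chromosome 19 far exceeded miR-24-1* of chromosome 9 in 3 libraries. The reads of miR-24-2* and miR-24-1* were 139 and 12 in exosomes (11.6-fold, 6.38 to 23.1) and 2248 and 120 in cells (18.7-fold, 15.5 to 22.9) of MDA-MB-231. MCF-10A exosomes had 106 and 2 reads (53-fold, 14.2 to 446). In the library labelled MCF-10A cell they were 321 and 420, with miR-24-1* the higher by 1.31-fold (1.12 to 1.53). A ratio of star arms does not measure the share of miR-24 that each locus made. The miR-23 star arms had few reads, with miR-23a* and miR-23b* at 5 and 20 in exosomes and 81 and 13 in cells of MDA-MB-231. MCF-10A exosomes had 5 and 2 of them, while the library labelled MCF-10A cell had 4 and 84. In MDA-MB-231 exosomes miR-23b* exceeded miR-23a* by 4-fold (1.45 to 13.7), against the order of the guides miR-23a and miR-23b.

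Markers of other tissues, summed over the lists, stood in the opposite order of libraries to the a cluster's share of star reads. The library labelled MCF-10A cell had the lowest a share of star reads and the most reads of other tissues, and MDA-MB-231 exosomes were next in both. The a share over the miR-23 and miR-27 guides did not follow that order, being lowest in MDA-MB-231 exosomes (45.4%) and highest in the cells of that line (72.5%). Of the 44 listed names, MDA-MB-231 exosomes had 23 with at least 10 reads and 16 at 0, and the cells of that line had 13 with at least 10 reads and 21 at 0. In MCF-10A exosomes 13 had at least 10 reads and 25 were at 0, while in the library labelled MCF-10A cell all 44 had at least 10 reads. The endothelial list of miR-126 and miR-126* held 0.827% of reads in exosomes and 0.0301% in cells of MDA-MB-231, and 0.0295% in exosomes and 2.21% in the cell-labelled library of MCF-10A. The mesenchymal list, led by miR-143, held 0.651% in exosomes and 0.000846% in cells of MDA-MB-231, and 0.002% in exosomes and 31.8% in the cell-labelled library of MCF-10A. The lists did not all have 1 order of libraries. The neural list held 0.208% in exosomes and 0.304% in cells of MDA-MB-231, and 0.0387% in exosomes and 0.409% in the cell-labelled library of MCF-10A. It made up most of the 0.348% on all lists in MDA-MB-231 cells. The place of those cells above MCF-10A exosomes (0.0881%) in the summed order rested on it. The liver list held 0.283% in exosomes and 0.000204% in cells of MDA-MB-231, and 0.000795% in exosomes and 0.198% in the cell-labelled library of MCF-10A. All 9 placental names were at 0 in 3 libraries and above 0 in the library labelled MCF-10A cell. The part of these RNAs in the ratios was not tested.

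Within a cluster, the members did not keep 1 proportion. The ratio of miR-27a to miR-23a was 2.07 in exosomes (2 to 2.15) and 2.58 in cells (2.54 to 2.63) of MDA-MB-231. It was 1.59 in MCF-10A exosomes (1.51 to 1.67), while the library labelled MCF-10A cell had 1.8 (1.77 to 1.83). The ratio of miR-27b to miR-23b was 13.2 in exosomes (12.4 to 14) and 7.36 in cells (7.13 to 7.6) of MDA-MB-231. It was 8.28 in MCF-10A exosomes (7.44 to 9.24), while the library labelled MCF-10A cell had 1.97 (1.94 to 2). The a cluster thus stayed within a narrow range, and the b cluster did not: miR-23b was scarce beside miR-27b in 3 libraries and about as scarce as miR-23a beside miR-27a in the other. miR-24 went with miR-27a more closely than with miR-27b, at 1.91 to 2.48 times miR-27a over the 4 libraries and 1.49 to 4.66 times miR-27b. miR-24 to miR-27b was lowest in MDA-MB-231 exosomes and highest in MDA-MB-231 cells.

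The ratio of a guide to its own star arm also varied. miR-27a was 33.6 times miR-27a* in exosomes (30.2 to 37.6) and 19 times in cells (18.4 to 19.7) of MDA-MB-231. It was 26.4 times in MCF-10A exosomes (22.7 to 30.7), while the library labelled MCF-10A cell had 664 times (576 to 770). miR-27b was 79.5 times miR-27b* in exosomes (70 to 90.5) and 25.8 times in cells (24.5 to 27.2) of MDA-MB-231. It was 72.5 times in MCF-10A exosomes (54.4 to 98.9), while the library labelled MCF-10A cell had 101 times (95.6 to 107). In MDA-MB-231 the exosomes thus held less star arm per guide than the cells, for both. Over 57 names with a star partner, each arm with at least 10 reads per 10000000 in every library, the median log2 ratio was 4.83 in exosomes and 4.55 in cells of MDA-MB-231, and 4.08 in exosomes and 5.89 in the cell-labelled library of MCF-10A. For MDA-MB-231 cells minus the library labelled MCF-10A cell, the log2 ratio of miR-27a to its star differed by −5.12 beside a median of −1.02, and 3 of the other names lay at least as low. For exosomes minus cells of MDA-MB-231, it differed by 1.62 for miR-27b and 0.82 for miR-27a, beside a median of 0.57.

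**Figure D4:**
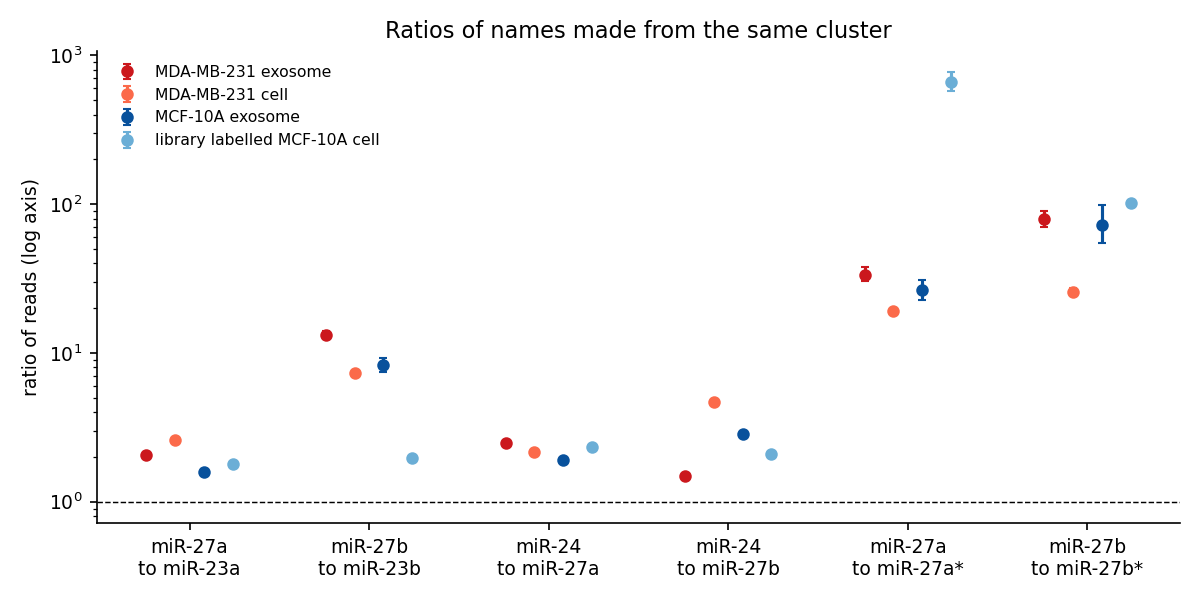
Ratios of reads between names made from 1 cluster, or from 1 hairpin (log axis; dashed line at equal reads), in the 4 libraries with 95% counting intervals. miR-27b to miR-23b is 1.97 in the library labelled MCF-10A cell and runs from 7.36 to 13.2 in the others. miR-27a to miR-23a runs from 1.59 to 2.58, and miR-27a to miR-27a* reaches 664 in the library labelled MCF-10A cell.

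The exosome library of the cancer line was compared with that of the non-transformed line. The lists of other tissues held 2.62% of reads in the first and 0.0881% in the second. The part of such RNAs in the differences was not tested. All 5 members were higher in MDA-MB-231 exosomes, under every scaling tried. miR-27b was 4.96-fold higher (4.75 to 5.18), miR-23b 3.12-fold (2.78 to 3.50), miR-24 2.58-fold (2.51 to 2.66), miR-27a 1.99-fold (1.91 to 2.07) and miR-23a 1.53-fold (1.45 to 1.60). A name counted as higher or lower at a 4-fold difference of the deposited values. By that rule 1 of 5 members was higher, miR-27b, against 29.3% of the 505 names that reached 10 reads per 10000000 in either library, so the count is near the background. None was lower, against 19% of names. The median log2 difference was 1.37 over the members and 0.59 over all names. Relative to that of all names, miR-23a stood at 0.02, miR-27a at 0.40, miR-24 at 0.78, miR-23b at 1.05 and miR-27b at 1.72. The b names stood highest. Under upper-quartile scaling miR-27b fell below 4-fold, at a log2 difference of 1.86. As deposited, 3 of the 6 star arms were at least 4-fold higher, against 39 of all 122 star names past the minimum. These were the 3 of the b cluster, with 271 against 49 reads for miR-27b* (4.53-fold, 3.31 to 6.31), 20 against 2 for miR-23b* and 12 against 2 for miR-24-1*. The last 2 thus rest on 2 reads in MCF-10A exosomes. miR-27b* was under 4-fold with upper-quartile scaling (a log2 difference of 1.73) and the median of ratios (1.94), and miR-24-1* with upper-quartile scaling (1.81) and a pseudocount of 10 (1.77). The ratio for miR-24-2* was 1.07 (0.822 to 1.40).

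Exosomes were also set against cells of the same line. In MDA-MB-231, 3 members were lower in exosomes than in cells under every scaling tried. miR-27a was 1.84-fold lower (1.79 to 1.89), miR-24 1.60-fold (1.57 to 1.63) and miR-23a 1.47-fold (1.43 to 1.52). miR-27b was 1.95-fold higher in exosomes (1.90 to 1.99), under every scaling tried. miR-23b differed by 1.09-fold (1.02 to 1.15), which turned to lower under upper-quartile scaling. None of the members reached 4-fold in either direction, against 22.2% of 499 names that were higher and 13.4% that were lower. The median log2 difference was −0.56 over the members and −0.09 over all names. Of the star arms, those of the a cluster had log2 differences of −1.70 (miR-27a*), −1.75 (miR-24-2*) and −1.73 (miR-23a*), while miR-27b* had −0.66 and miR-24-1* −1.05. miR-23b* had 20 reads in exosomes and 13 in cells at their different depths, or 7.37-fold higher in exosomes (3.47 to 16.2). Over all 119 star names past the minimum the median was −0.37.

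In MCF-10A, all 5 members were lower in exosomes than in the library labelled MCF-10A cell as deposited. miR-23b was 20.8-fold lower (18.8 to 23.1), miR-27b 4.96-fold (4.76 to 5.16), miR-24 3.61-fold (3.51 to 3.70), miR-27a 2.95-fold (2.85 to 3.05) and miR-23a 2.60-fold (2.5 to 2.71). Under upper-quartile scaling miR-23b alone stayed lower, at a log2 difference of −1.75 against −4.38 as deposited, and the other 4 turned to higher. By the 4-fold rule 2 of 5 were lower, against 57.2% of 661 names, and 0 were higher, against 15.4%, so the lower count is near the background. The median was −1.85 over the members and −3.27 over all names, so that relative to all names 4 members stood higher in exosomes and miR-23b stood lower, at −1.11. As deposited, the star arms of the 2 loci went opposite ways, although miR-27b* and miR-23b* turned to higher in exosomes under upper-quartile scaling. miR-27a* was 8.55-fold higher in exosomes (6.96 to 10.5) and miR-24-2* 2.88-fold higher (2.27 to 3.62), while miR-24-1* had 2 reads against 420 and miR-27b* was 3.55-fold lower (2.66 to 4.86). Over all 144 star names past the minimum the median log2 difference was −1.79. miR-27b* (−1.83) and miR-23b* (−2.20) thus lay near that median, and the a cluster's star arms lay above it.

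The cells of the lines were compared through the same library. As deposited, MDA-MB-231 cells had 7.26-fold less miR-23b than the library labelled MCF-10A cell (7.04 to 7.49). The log2 difference of −2.86 ran from −3.84 to −0.42 over the scalings tried, the smallest with upper-quartile scaling. miR-27b was 1.95-fold lower (1.91 to 1.98), which turned to higher under upper-quartile scaling. miR-23a (1.16-fold lower), miR-27a (1.24-fold higher) and miR-24 (1.15-fold higher) differed less, and each changed direction under at least 1 other scaling. By the 4-fold rule 1 of 5 was lower and 0 were higher, against 54.3% and 17.3% of 665 names. The median was −0.21 over the members and −2.83 over all names. The a cluster's star arms were higher in MDA-MB-231 cells under every scaling tried. miR-27a* had 6017 reads in MDA-MB-231 cells against 207 in the library labelled MCF-10A cell, or 43.3-fold higher (37.4 to 50.3), and miR-24-2* was 10.4-fold higher (9.21 to 11.8). The guides miR-27a and miR-24 thus differed far less than the star arms of their chromosome 19 hairpins. The comparison shares its libraries with those of exosomes against cells, so these values are not independent of them. Set against MCF-10A exosomes instead, MDA-MB-231 cells had higher levels of all 5 members, from 2.25-fold for miR-23a to 4.14-fold for miR-24. Of the names past the minimum, 62.9% lay below miR-23a and 74.3% below miR-24 in this comparison, with the other members between. The members thus stood inside the range of such names.

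**Figure D5:**
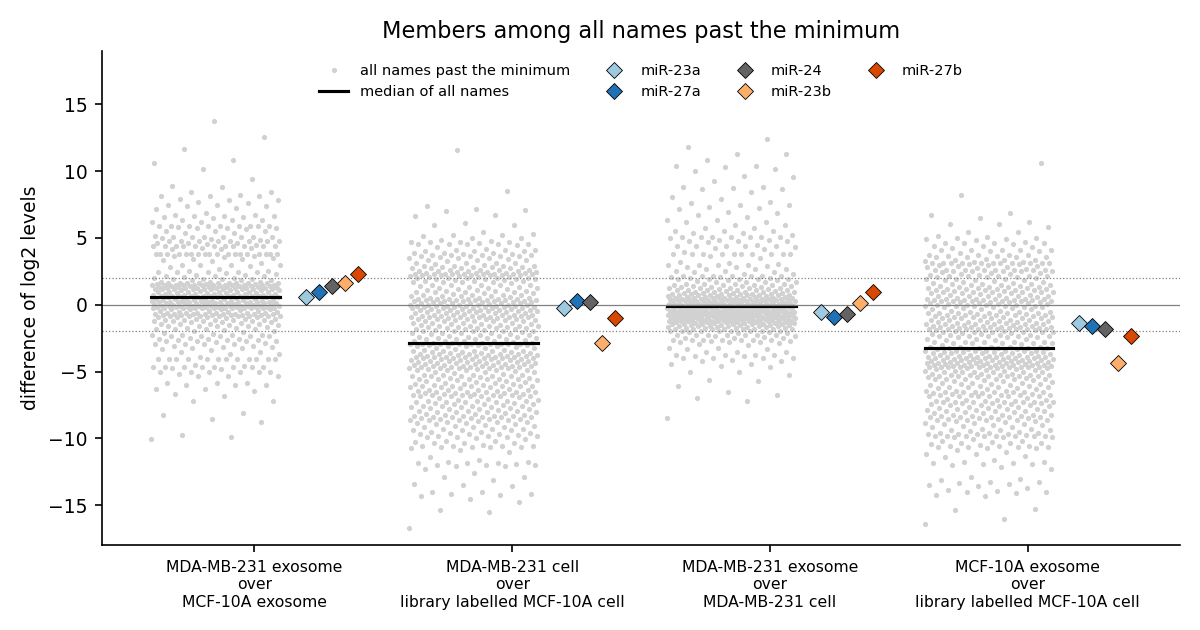
Difference of log2 levels (vertical axis) in the 4 comparisons for the members (diamonds), all names that reached 10 reads per 10000000 in either library (grey) and the median of all those names (black line); dotted lines mark 4-fold. In the exosomes the members lie between 0.61 and 2.31 beside a median of 0.59, and in the comparisons with the library labelled MCF-10A cell all names centre far below 0.

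The names most like each member were sought by the root mean square difference of log2 levels over the 4 libraries, after each name was centred on its own mean, over 204 candidates that reached 50 reads per 10000000 in every library. miR-23a lay nearest to miR-324-3p (0.06), let-7d (0.20) and miR-30c (0.24). miR-27a and miR-24 lay 0.14 apart over the 4 libraries, and among the other names miR-324-3p was nearest to miR-27a (0.22) and miR-98 was nearest to miR-24 (0.18). miR-542-5p was the second for both, at 0.23 from miR-27a and 0.19 from miR-24. miR-98 was the third for miR-27a (0.25) and miR-181c* the third for miR-24 (0.27). miR-23b lay nearest to miR-628-5p (0.17), miR-450a (0.35) and miR-28-5p (0.35), and its nearest fellow member, miR-27b, lay 1.02 away. miR-27b lay nearest to miR-181a (0.32), miR-330-3p (0.39) and miR-140-3p (0.42), and its nearest fellow member was miR-24 (0.60). Without the library labelled MCF-10A cell all 5 nearest names changed, over 219 candidates. miR-27a then lay nearer to miR-374a (0.07), and miR-24 nearer to miR-151-3p (0.06), than the 0.16 that lay between miR-27a and miR-24. miR-27b then lay nearest to miR-450b-5p (0.12) and miR-181b (0.26), and its nearest fellow member was miR-23b (0.36). miR-23b lay nearest to miR-330-3p (0.03), and its nearest fellow member was miR-24 (0.33). The distance of miR-23b from the other members over the 4 libraries thus rested on that library.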

How the data were processed

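The deposited value of each name is on a log2 scale with 2 decimals. The submitters' processing notes name hg18, Novoalign and edgeR, without versions or roles. The purification of exosomes and the assignment of reads to names are not given in the sources used here. Back on a linear scale, with the pseudocount of 1 taken off, each library summed to about 10000000 (9992361 to 10004141). Low values are whole multiples of 1 read's worth (6.52 per 10000000 in exosomes and 1.36 in cells of MDA-MB-231, 7.97 in exosomes and 0.914 in the cell-labelled library of MCF-10A). For 100% of the names that the rounding resolves (an interval under 0.5 reads; 40.1% to 65.7% of names above 0) a whole number of reads lay in that interval. Larger read numbers are known to 0.347%. The recovery was tested on simulated data.

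Ratios of reads have exact conditional binomial 95% intervals, and shifts of ratios intervals from the summed inverse reads, all widened by the rounding. Shares have Wilson intervals. A count of 0 allows 3 reads. Names passed at 10 reads per 10000000 in 1 library compared. Sequences were matched by name to RefSeq's table (GRCh38.p14). Python 3.11.15 with pandas and scipy was used. Named were all members, their 6 star arms and the 3 nearest names to each. The members and lists were chosen with earlier results of these data known. Alternatives were other scalings, pseudocounts, minimums and a 2-fold size.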

Additional observations from a re-analysis of the deposited data

Results flagged for a closer look

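As deposited, exosomes against cells went opposite ways in the lines for both b names, with 1 library in each arm, so that the difference was not tested. miR-23b had log2 differences of 0.12 in MDA-MB-231 and −4.38 in MCF-10A, which differ by 4.50. miR-27b had 0.96 in MDA-MB-231 and −2.31 in MCF-10A, which differ by 3.27. Under upper-quartile scaling neither went opposite ways, with miR-23b at −0.14 in MDA-MB-231 and −1.75 in MCF-10A, and miR-27b at 0.70 and 0.32. Over 701 names the median of this difference was 2.91, and 61.2% of names lay below miR-23b and 51.8% below miR-27b.

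The a to b ratios also shifted opposite ways between exosomes and cells. The shift of miR-23a to miR-23b was −0.68 in MDA-MB-231 and 3 in MCF-10A, a difference of −3.68, not tested. That of miR-27a to miR-27b was −1.84 in MDA-MB-231 and 0.75 in MCF-10A, a difference of −2.59, not tested. All of these values use the library labelled MCF-10A cell, and the part of its other-tissue miRNAs in them was not tested. Opposite shifts were not particular to these pairs. miR-30a to miR-30b shifted by −0.36 in MDA-MB-231 and 3.41 in MCF-10A, and miR-320a to miR-320b by −0.52 and 4.01. The miR-26 and miR-148 pairs also went opposite ways. Most of the other pairs went the same way in both lines, such as let-7a to let-7b (−2.90 and −1.52).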

How the results depend on the processing

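No pairing by replicate number could be made, since each group has 1 library and the labels give no such numbers, and no replicate could be left out. Exosomes and cells pair by line, but a fit of both lines together, with line as a block, was not run. The a to b ratios in each library, their shifts between libraries and the shares of star reads stayed within their counting intervals with recovered reads, with a pseudocount of 10 (ratios) and with linear values (star reads). Recovered reads and linear values are computed from the deposited values, and a pseudocount of 10 is small beside the members' levels. This agreement was thus fixed in advance, and it cannot show how the assignment of reads to paralogs bears on the ratios. MDA-MB-231 cells against MCF-10A exosomes, chosen after seeing the data, gave −0.35 for the miR-23 shift, reversed from 2.65, and 0.52 for the miR-27 shift. It also gave 1.52 for miR-23b, reversed from −2.86. The count of members past 4-fold moved with the scaling. Under upper-quartile scaling it was 0 higher in MDA-MB-231 exosomes against MCF-10A exosomes, 3 higher and 0 lower in MDA-MB-231 cells against the library labelled MCF-10A cell, and 0 lower in MCF-10A exosomes against that library, where miR-27b reversed to 0.32. miR-23b* reversed to 0.31 in the cells and to 0.35 in MCF-10A exosomes under the same scaling. In this last comparison 1 member was lower under the median of ratios, 1 with miR-21 left out of the total and 5 with the other-tissue names left out of it. A 2-fold size gave 3 higher members in the exosomes and 5 lower in MCF-10A exosomes against the library labelled MCF-10A cell. Upper-quartile scaling moved the median of all names from 0.59 to 0.14, from −2.83 to −0.43, from −0.09 to −0.35 and from −3.27 to −0.68 in the order exosomes, cells, MDA-MB-231 and MCF-10A exosomes against cells. The cause of these changes was not tested. Other minimums changed no share of called names by over 1.5 times. Depth limits the star arms most, with 2 reads of miR-24-1* and of miR-23b* in MCF-10A exosomes.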
